A study of Rattus norvegicus with 6 samples.

Results

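The genes of 8 structural myelin proteins, Pmp22, Mbp, Mag, Prx, Cldn19, Mal, Pmp2 and Cnp, were followed in the rat sciatic nerve after a crush injury. They were taken by symbol from the 30957 genes of the mRNA table, and each symbol matched 1 row. RNA was sequenced from 6 Sprague-Dawley rats, 1 month old, in 3 groups of 2: the control group, the D4 group, sampled 4 days after the crush, and the D7 group, sampled 7 days after it. In the injured groups the left sciatic nerve was exposed and its middle segment was clamped with forceps. By the methods, the control rats had the same surgery and no clamp, whereas their labels say normal control. Total RNA was depleted of ribosomal RNA, and 1 library was made from each rat. The libraries of each group are called a and b here, which ties no rat of one group to a rat of another.

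Myelin in peripheral nerve is a spiral of Schwann cell membrane around an axon. Its compact layers are held together by adhesion and basic proteins, and its uncompacted regions, at the inner wrap, the paranodes, the incisures and the outer surface, carry other proteins. When an axon degenerates after a crush, the Schwann cells of the distal nerve stop making myelin, become repair cells that break down their sheaths, and remyelinate once axons have regrown. Of the genes followed here, Pmp22 encodes a tetraspan protein, Mbp the basic protein of the cytoplasmic face, Pmp2 a fatty acid binding protein and Mal a raft-associated proteolipid, all of compact myelin or its membranes. Mag encodes an adhesion molecule of the inner, axon-facing wrap, Cldn19 a tight junction claudin of the uncompacted membrane, and Prx periaxin, a scaffold of the outer Schwann cell membrane. Cnp encodes a nucleotide phosphodiesterase of uncompacted cytoplasm.

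Transcripts of most of these genes were far below the control level on D4 and had in part returned on D7. On D4, 7 of the 8 genes were lower than in control, by between 14.0-fold (Mbp) and 172-fold (Prx), and Cnp was not called. On D7, 6 were lower, by between 2.43-fold (Cldn19) and 10.1-fold (Mal). Between D4 and D7, 6 rose, by between 4.78-fold (Pmp2) and 60.6-fold (Mag). Calls required an adjusted p-value under 0.05 in edgeR's quasi-likelihood test together with a log2 fold change of 1 or more in either direction. Among the 15195 mRNAs tested, 10.7% were called lower on D4, 9.02% were called lower on D7, and 1.68% were called higher on D7 than on D4. All 8 genes passed the low-count filter. In whole nerve, fewer cells of a type and less RNA per cell cannot be told apart.

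The libraries held between 18727255 and 25350886 fragments counted on mRNAs, with TMM scaling factors from 0.863 to 1.08. The biological coefficient of variation was 0.181, and the log2 CPM values (fragment counts scaled to a common library total) of rats of the same group had correlations from 0.981 to 0.991 across genes, which are not independent replicates. Of the genes that define the tissue, S100b, made by Schwann cells, stood at a mean of 1969 CPM in control. Prx, itself among the 8 genes followed here, stood at 6235 CPM. The spread given below is that between 2 rats of a group. The library of control a was above that of control b, and D7 a above D7 b, for each of the 8 genes.

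To show what lay in front of these genes, the 250 bases before the transcription start were taken from RefSeq on assembly GRCr8 for 7 of the 8 genes. Motifs were searched on both strands in 33469 windows of the rat genome. GCGNGGGCG and GNGTGGGNG stood for the EGR family, to which Egr2 belongs, and ACAAAG and AACAAT for the Sox family, to which Sox10 belongs. The first was in 4.29% of all windows and in no window of these genes. GNGTGGGNG was in 11.3% of all windows and in that of Prx, 119 bases before the start. ACAAAG was in 16.3% of all windows and in those of Cnp, at 203 bases, Mag, at 152 bases, and Mbp, and AACAAT was in 10.3% and in that of Mbp. The windows of Prx, which fell most on D4, of Mag, which rose most between D4 and D7, and of Cnp, which was not called on either day, are printed 5′ to 3′ on the gene's strand, with the motif match in capitals, where a match on the opposite strand reads as its reverse complement. Each match is a run of letters and not a measured binding site.
Prx, chr1:91914171-91914420, plus strand: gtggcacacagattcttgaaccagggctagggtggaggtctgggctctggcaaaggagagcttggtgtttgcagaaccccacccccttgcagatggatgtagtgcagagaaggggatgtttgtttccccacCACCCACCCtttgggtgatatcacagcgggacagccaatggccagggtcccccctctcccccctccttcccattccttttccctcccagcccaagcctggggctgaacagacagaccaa
Mag, chr1:95291045-95291294, minus strand: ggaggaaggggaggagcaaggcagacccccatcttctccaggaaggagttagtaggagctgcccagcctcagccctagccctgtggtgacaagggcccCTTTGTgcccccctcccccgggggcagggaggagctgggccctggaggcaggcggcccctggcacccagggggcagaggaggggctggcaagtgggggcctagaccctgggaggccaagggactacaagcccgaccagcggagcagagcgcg
Cnp, chr10:86011254-86011503, plus strand: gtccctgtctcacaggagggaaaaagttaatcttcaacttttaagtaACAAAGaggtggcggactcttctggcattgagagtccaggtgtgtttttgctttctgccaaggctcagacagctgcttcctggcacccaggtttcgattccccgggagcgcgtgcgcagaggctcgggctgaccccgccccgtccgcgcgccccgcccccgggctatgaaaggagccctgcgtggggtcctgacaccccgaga

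Of the compact myelin genes, Pmp22 (ENSRNOG00000003338, Rnor_6.0 chromosome 10, 49538588 to 49568583) was counted at 18953 and 12891 CPM in control a and b, at 257 and 308 CPM in D4 a and b, and at 2039 and 1236 CPM in D7 a and b. Every D7 library lay above both D4 libraries and below both control libraries. Its log2 fold change against control was -5.81 ± 0.36 (SE, n = 2 rats a group) on D4, with an adjusted p = 0.000186 in edgeR's quasi-likelihood test, and -3.28 ± 0.32 on D7, with an adjusted p = 0.000967. Mbp (ENSRNOG00000016516, chromosome 18, 79326738 to 79437310), the basic protein gene, was at 13194 and 8008 CPM in control, 775 and 741 CPM on D4, and 1993 and 1262 CPM on D7. The 3 groups did not overlap for Mbp either, and its fall on D4 was the smallest of the 7, with a log2 fold change of -3.81 ± 0.33 and an adjusted p = 0.000469. The share of all mRNAs whose groups did not overlap was not counted, so such separation, here and below, is only described. On D7 the log2 fold change of Mbp against control was -2.70 ± 0.32, with an adjusted p = 0.00175.

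Mal (ENSRNOG00000015445, chromosome 3, 120209647 to 120233655) was at 3042 and 2201 CPM in control, 26.9 and 32.0 CPM on D4, and 323 and 196 CPM on D7. Pmp2 (ENSRNOG00000022707, chromosome 2, 93827504 to 93831419) was at 3013 and 2152 CPM in control, 71.2 and 82.5 CPM on D4, and 462 and 272 CPM on D7. In both the groups were separate, with control highest, D7 between and D4 lowest. Against control, Mal fell by 6.48 on the log2 scale on D4 (SE 0.34, adjusted p = 0.000141 in edgeR's quasi-likelihood test) and Pmp2 fell by 5.07 (SE 0.33, adjusted p = 0.000216). On D7 the falls were 10.1-fold for Mal and 7.03-fold for Pmp2, both called.

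Of the genes of uncompacted and outer membranes, Prx (ENSRNOG00000018369, chromosome 1, 84304228 to 84324560) was at 7334 and 5136 CPM in control, 35.7 and 36.9 CPM on D4, and 1319 and 827 CPM on D7. Its D4 libraries were at 0.582% of the control mean, the lowest share of the 8 genes, and the D7 libraries at 17.2%. The log2 fold change was -7.42 ± 0.35 on D4, with an adjusted p = 0.000124 in edgeR's quasi-likelihood test, and -2.54 ± 0.28 on D7, with an adjusted p = 0.00138. Mag (ENSRNOG00000021023, chromosome 1, 89345429 to 89360733) had the lowest FPKM of the 8 genes in every library, with 4160 and 2502 fragments in control, 37 and 52 on D4, and 2835 and 1546 on D7. In CPM these were 214 and 151, then 1.52 and 1.92, then 133 and 76.5. The D7 libraries lay below both control libraries, so that the groups did not overlap. The log2 fold change of Mag was -6.72 ± 0.39 on D4, with an adjusted p = 0.000169, whereas on D7 it was -0.80 with a 95% interval from -1.51 to -0.09 and an adjusted p = 0.0748, which was not called. Without D7 a, Mag was called lower on D7, with a log2 fold change of -1.23 and an adjusted p = 0.0229.

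Cldn19 (ENSRNOG00000007922, chromosome 5, 138300107 to 138305683) was at 428 and 281 CPM in control, 4.68 and 7.79 CPM on D4, and 175 and 116 CPM on D7. All D7 libraries were between the D4 and the control libraries. Its log2 fold change was -5.82 ± 0.39 on D4, with an adjusted p = 0.000231 in edgeR's quasi-likelihood test, and -1.28 ± 0.32 on D7, with an adjusted p = 0.0241. The D7 call was lost without control a (log2 fold change -0.95, adjusted p = 0.0847) and without D7 b (-1.02, adjusted p = 0.0877).

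Cnp (ENSRNOG00000017496, chromosome 10, 88490798 to 88497356), the phosphodiesterase gene, gave 1159 and 827 CPM in control, 950 and 1004 CPM on D4, and 1454 and 1048 CPM on D7. The D4 libraries lay between the control libraries, and the D7 libraries overlapped with control. Its log2 fold change was -0.02 on D4 (95% interval -0.55 to 0.50, adjusted p = 0.94 in edgeR's quasi-likelihood test) and 0.33 on D7 (95% interval -0.19 to 0.86, adjusted p = 0.263). The interval on D4 did not reach the fall of any of the other 7 genes, and its sign turned under other settings.

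**Figure D1:**
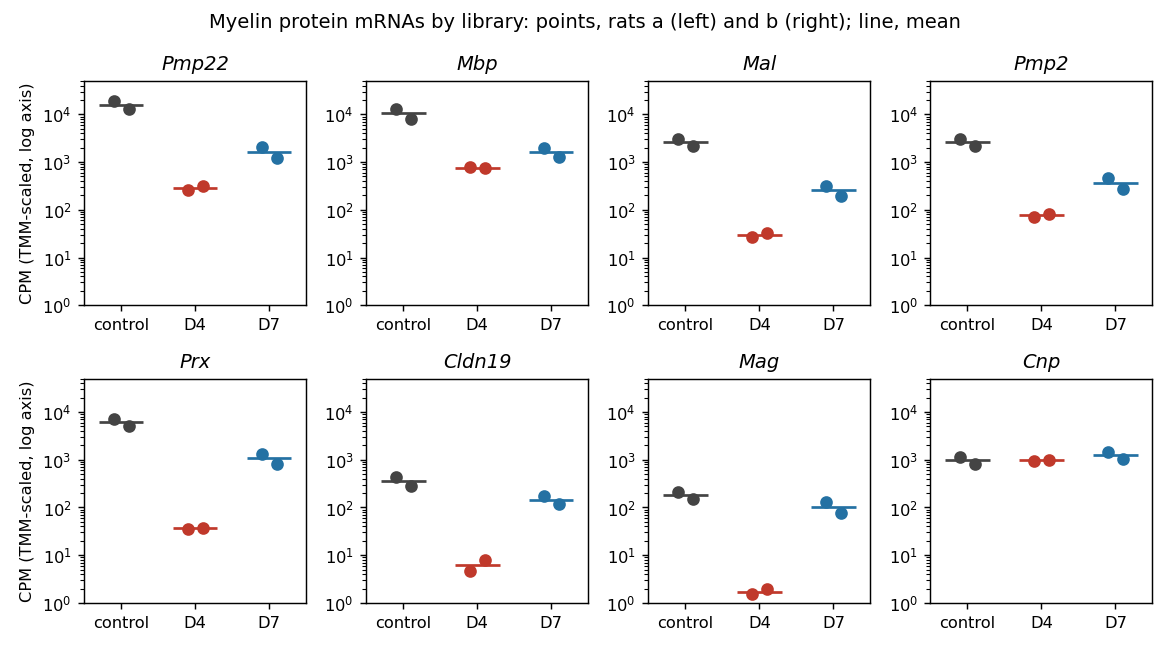
TMM-scaled CPM of the 8 genes on a log axis, with a point for each library of the control, D4 and D7 groups and a bar at the group mean. For 7 genes the D4 libraries lay far below the control libraries and below the D7 libraries, and for Cnp the groups lay side by side.

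**Figure D2:**
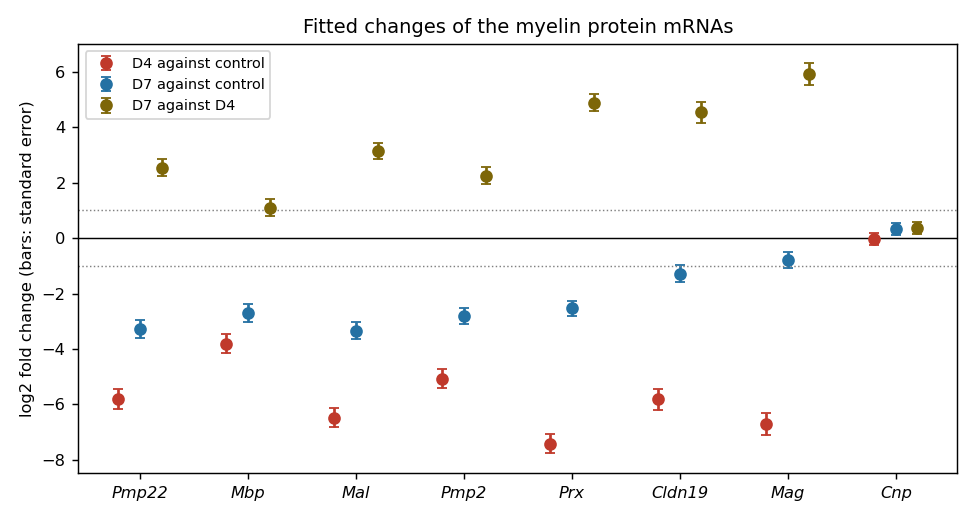
Fitted log2 fold changes of the 8 genes in the 3 contrasts, with standard errors. The D4 values of 7 genes ran from -7.42 to -3.81, and those of Cnp lay near 0.

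Differences between D4 and D7 were tested directly. Mag rose by 5.92 ± 0.38 on the log2 scale between D4 and D7 (adjusted p = 0.0097 in edgeR's quasi-likelihood test), Prx by 4.89 ± 0.31 (adjusted p = 0.0097) and Cldn19 by 4.54 ± 0.37 (adjusted p = 0.0117). The rises of Mal (3.14 ± 0.29, adjusted p = 0.0117), Pmp22 (2.53 ± 0.31, adjusted p = 0.0184) and Pmp2 (2.26 ± 0.29, adjusted p = 0.0215) were smaller in size. Mbp was 2.15-fold higher on D7 than on D4, with a 95% interval from 0.37 to 1.84 on the log2 scale and an adjusted p = 0.0947, and was not called. Cnp differed by 0.36, with a 95% interval from -0.17 to 0.88 and an adjusted p = 0.365. The median of the 8 values was 2.84, beside 0.01 over all mRNAs tested. Leaving out D4 a or D4 b left none of the 6, and no mRNA of the whole table, called, with adjusted p-values of the 6 from 0.112 to 0.202, although the log2 fold changes stayed between 2.15 (Pmp2) and 6.10 (Mag).

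As a share of the fall from the control mean to the D4 mean, the D7 level of Mag had regained 57.0%, with 72.7% in D7 a and 41.3% in D7 b. Cldn19 had regained 40.1% (48.6% and 31.6%) and Prx 16.7% (20.7% and 12.7%). Pmp2 followed with 11.6% (15.4% and 7.80%), Mal with 8.87% (11.3% and 6.42%), Mbp with 8.84% (12.5% and 5.12%) and Pmp22 with 8.66% (11.2% and 6.09%). Mag and Cldn19 stood above the other genes in both D7 libraries, whereas their own values overlapped between the rats, as did those of Prx and Pmp2. Within D7 a and within D7 b, Mag stood above Cldn19 and Prx above Pmp2. The 3 highest shares were those of the genes described above as uncompacted or outer membrane, a grouping made after the values were seen and given without a test. The control mean and the D4 mean enter every one of these shares.

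**Figure D3:**
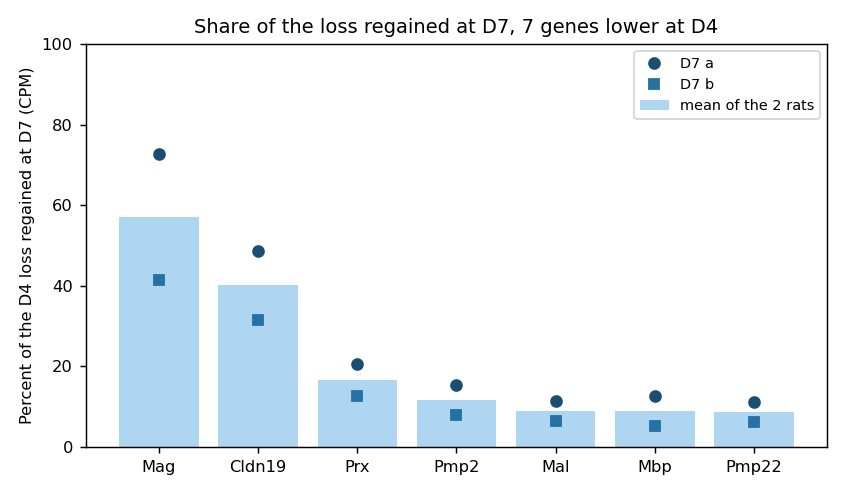
Share of the loss on D4 that had been regained on D7, in percent, for the 7 genes that fell, with a point for each D7 library and a bar at the mean. Mag was at 57.0% and Cldn19 at 40.1%, and the other 5 genes lay between 8.66% and 16.7%.

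Together the 8 genes took 4.09% and 2.80% of all mRNA fragments in control a and b, with exact 95% binomial intervals from 4.08% to 4.09% and from 2.79% to 2.81% that cover counting error only. On D4 they took 0.226% and 0.236%, and on D7 0.840% and 0.543%. By fragment count, Pmp22 took places 4 and 6 among all genes in the control libraries, places 542 and 418 on D4, and places 24 and 52 on D7. Prx went from places 11 and 13 to 5448 and 5333 and back to 55 and 94, whereas Cnp stayed between places 51 and 123 in all 6 libraries.

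Levels of these genes were set against each other as FPKM, which divides by transcript length. The places given above were by fragment count, which is not divided by length. In control the order of mean FPKM was Pmp22 at 4241 ± 1070 (SD, n = 2), Mbp at 2548 ± 839, Pmp2 at 1672 ± 366, Prx at 1175 ± 273, Mal at 1006 ± 211, Cnp at 376 ± 82.6, Cldn19 at 179 ± 49.4 and Mag at 54.6 ± 12.5. The same order held within control a and within control b. Of the neighbours in this order, the libraries of Prx and Mal overlapped and the others did not, although the lower Mbp library, at 1954, was close to the higher Pmp2 library, at 1931. On D4, Cnp led with 453 ± 18.1, followed by Mbp with 223 ± 6.65, Pmp22 with 92.2 ± 11.9, Pmp2 with 60.9 ± 6.44, Mal with 13.8 ± 1.70, Prx with 8.37 ± 0.21, Cldn19 with 3.85 ± 1.37 and Mag with 0.63 ± 0.10, and no neighbours in this order overlapped. On D7, Cnp at 582 ± 128, Pmp22 at 535 ± 180 and Mbp at 480 ± 148 overlapped, as did Pmp2 at 292 ± 104 with Prx at 248 ± 78.1, and Mal at 122 ± 41.1 with Cldn19 at 90.3 ± 25.0. Mag stayed last at 38.4 ± 14.3, and the order of the D7 means held within D7 a and within D7 b.

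Within the summed FPKM of the 8 genes, Pmp22 made up 37.6% and 37.9% in control, 10.1% and 11.4% on D4, and 22.9% and 21.7% on D7. Cnp made up 3.27% and 3.46% in control, 52.9% and 53.0% on D4, and 23.2% and 26.1% on D7. Mbp made up between 20.0% and 27.4% in the 6 libraries. Prx returned to 10.5% and 10.3% on D7, beside 10.3% and 10.7% in control. The shares of Mag, 1.68% and 1.51%, and of Cldn19, 3.73% and 3.86%, were higher on D7 than in control, where Mag had 0.477% and 0.498% and Cldn19 1.61% and 1.56%. These shares carry no test, and a fall of one gene raises the share of the others.

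**Figure D4:**
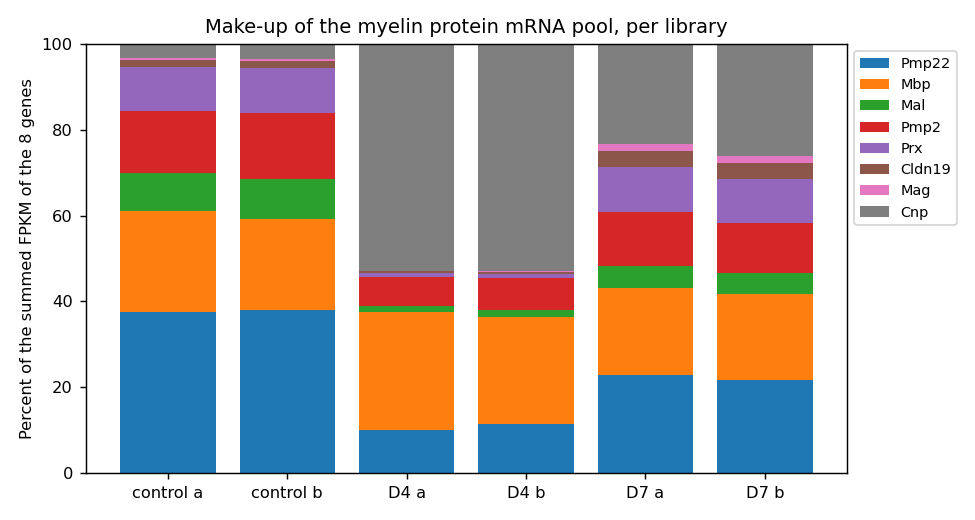
Share of each of the 8 genes in their summed FPKM, in percent, with a stacked bar for each of the 6 libraries. Pmp22 and Mbp filled most of the control bars, and Cnp filled 52.9% and 53.0% of the D4 bars.

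The genes were then set beside markers of the cells a nerve can hold. Of 94 symbols on lists of other genes, 90 were matched in the mRNA table and 87 were tested. Among the 7 Schwann lineage genes tested, 2 were higher, 2 lower and 3 not called on D4. Their median log2 fold change was -0.37, beside -0.04 over all mRNAs, of which 11.2% were called higher and 10.7% lower. The summed level of the 6 of them that encode no myelin protein was 2942 to 3568 CPM in control, 2915 to 3162 CPM on D4 and 3266 to 3937 CPM on D7. Set against this sum, Prx had 2.06 and 1.75 in control, 0.0122 and 0.0117 on D4, and 0.335 and 0.253 on D7, and the values of Mag were 0.0601 and 0.0513, then 0.000521 and 0.000608, then 0.0338 and 0.0234. Per unit of this sum, both genes had control highest, D7 between and D4 lowest, with no overlap. Cnp had 0.325 and 0.281 in control and 0.326 and 0.318 on D4. Within the sum, S100b went from a mean of 1969 CPM in control to 1121 CPM on D4, whereas Erbb3 went from 609 to 1333.5 CPM. The sum joins genes that moved in opposite directions and does not measure the number of Schwann cells. S100b, a Schwann cell marker, had a log2 fold change of -0.81 on D4 and -0.96 on D7. Its adjusted p-values were 0.00821 and 0.00571 in edgeR's quasi-likelihood test, but neither fall reached 2-fold and S100b was not called. Erbb3, the neuregulin receptor subunit, rose by 1.13 ± 0.14 on D4 (adjusted p = 0.0017 in edgeR's quasi-likelihood test), and Gpr37l1, a receptor of glial cells, had a log2 fold change of -2.59 ± 0.30 on D4 and -0.36 on D7, the latter not called.

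Markers of other cells moved with the groups. All 8 macrophage genes were called higher on D4, where 11.2% of all mRNAs were called higher, and 7 of 8 on D7, with 9.83% of all mRNAs. Their summed level was 391 to 412 CPM in control, 1655 to 1680 CPM on D4 and 1232 to 1398 CPM on D7. All 4 genes of cycling cells were higher on both days, and their sum ran from 31.2 to 66.5 CPM in control, from 794 to 931 CPM on D4 and from 529 to 567 CPM on D7. None of the 4 fibroblast genes was called on D4 and 1 was lower on D7, with a sum of 28002 to 29414 CPM in control, 18018 to 19524 CPM on D4 and 13919 to 15625 CPM on D7. Of 3 endothelial genes, 1 was lower on D4 and 3 on D7, with sums of 678 to 1264 CPM, 402 to 423 CPM and 199.9 to 383 CPM. The shares of all mRNAs called lower were 10.7% on D4 and 9.02% on D7. No muscle or adipocyte gene was called, and the adipocyte sum was 1034 to 1254 CPM in control, 148 to 296 CPM on D4, and 6.81 and 422 CPM in the D7 libraries. The part of these cells in the falls of the myelin genes was not tested.

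A list of 8 genes known from oligodendrocytes, the myelinating cells of the brain and spinal cord, held 3 at or near 0 fragments and 5 that were counted in control. Mog gave 9 and 0 fragments in control, none on D4, and 1 and 2 on D7, Opalin gave 4 fragments in control a alone, and Olig2 gave 3 in D4 b alone. These 3 genes did not pass the filter. The other 5, Mobp, Cldn11, Ermn, Hapln2 and Aspa, had between 73 (Mobp) and 3446 (Aspa) fragments in the control libraries. All 5 were lower on D4, where 10.7% of all mRNAs were called lower. Mobp fell from 237 and 73 fragments to 0 and 0, at least 71.0-fold lower against a floor of 3 fragments a library. Cldn11, a claudin that is also made outside oligodendrocytes, had the smallest fall of the 5, with a log2 fold change of -2.18 ± 0.26 (adjusted p = 0.00135 in edgeR's quasi-likelihood test).

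Other myelin genes were taken as a list of 18, all of which were tested. On D4, 10 were lower, none was higher and 8 were not called, with a median log2 fold change of -1.63. On D7, 7 were lower and 11 not called, with a median of -0.43. The shares of all mRNAs called lower were 10.7% on D4 and 9.02% on D7. Ncmap, a protein of peripheral myelin, fell most, from 7698 and 4240 fragments in control to 24 and 26 on D4. It stood at 910 and 413 on D7. Between D4 and D7, 5 of the 18 rose and none fell, with a median of 0.50, beside 1.68% of all mRNAs called higher.

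Periaxin binds a dystroglycan complex at the outer membrane, and 6 genes of that complex were tested. On D4, 4 were lower and 2 not called, with a median log2 fold change of -1.11, beside 10.7% of all mRNAs called lower. On D7, 2 were lower, beside 9.02% of all mRNAs. Drp2, the partner that periaxin binds directly, had 57912 and 42143 fragments in control, 761 and 754 on D4 and 4766 and 1965 on D7, with log2 fold changes of -6.55 ± 0.46 (adjusted p = 0.000245 in edgeR's quasi-likelihood test) and -4.10 ± 0.41 (adjusted p = 0.00104). Sgcb, a sarcoglycan, had the smallest fall among the 4, at -1.01 ± 0.09 on D4.

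Of 7 transcription factors of the myelin programme that were tested, 1 was higher, 2 lower and 4 not called on D4. On that day 11.2% of all mRNAs were called higher and 10.7% lower. Egr2, which drives myelin genes, was at 294 and 112 CPM in control, 16.5 and 23.0 CPM on D4 and 89.7 and 70.3 CPM on D7. The groups did not overlap, but the control rats lay far apart. Egr2 had a log2 fold change of -3.36 ± 0.48 on D4 (adjusted p = 0.00258 in edgeR's quasi-likelihood test), whereas on D7 the value was -1.34 with an adjusted p = 0.0562, which was not called. Sox10, the lineage factor, was not called in any contrast, with values of 0.07 on D4 and 0.63 on D7. Pou3f2, a POU factor of the promyelinating stage, rose by 1.22 ± 0.25 on D4 and by 1.89 ± 0.25 on D7.

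Among 10 negative regulators of myelin genes and genes of repair Schwann cells, 6 were higher, 2 lower and 2 not called on D4. Their median log2 fold change was 2.46, and 11.2% of all mRNAs were called higher and 10.7% lower. On D7, 6 were higher and 4 not called, beside 9.83% of all mRNAs called higher. Jun, a transcription factor of the repair cell, rose by 2.40 ± 0.09 on D4 (adjusted p = 0.000114 in edgeR's quasi-likelihood test) and by 2.13 ± 0.09 on D7. Ngfr, the low-affinity neurotrophin receptor, rose by 6.46 ± 0.13 and by 5.62 ± 0.13. Gdnf, a trophic factor, went from 3 and 2 fragments in control to 504 and 722 on D4 and 103 and 98 on D7, and was called higher on both days. Id2, an inhibitor of basic helix-loop-helix factors, had a log2 fold change of -1.45 ± 0.30 on D4 and 0.43, not called, on D7.

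Enzymes that make the sterols and lipids of myelin gave a list of 9 genes that were tested. On D4, 8 were lower and 1 not called, with a median log2 fold change of -3.27, beside 10.7% of all mRNAs called lower. On D7, 7 were lower and 2 not called, with a median of -2.60, beside 9.02% of all mRNAs. Fa2h, which hydroxylates the fatty acids of myelin lipids, had 13222 and 8484 fragments in control, 157 and 177 on D4 and 1866 and 959 on D7, with a log2 fold change of -6.52 ± 0.37 on D4 (adjusted p = 0.000162 in edgeR's quasi-likelihood test). Gal3st1, which makes sulfatide, had the smallest fall among the 8, at -1.59 ± 0.21 on D4, and its value of 0.13 on D7 was not called. Over all lists without the 8 genes, 33 of 87 were lower on D4, 25 on D7, and 15 were higher and 2 lower on D7 than on D4, of which none was called without D4 a or without D4 b. Over all 15195 mRNAs tested, 256 were called higher and 75 lower on D7 than on D4. Of the 87 list genes, 21 were higher than in control on D4 and 19 on D7, beside 11.2% and 9.83% of all mRNAs. The contrasts of D4 and of D7 with control share their control libraries.

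The genes whose pair of log2 fold changes lay nearest to the median pair of the 8 genes, -5.82 on D4 and -2.62 on D7, were sought among 9495 other mRNAs with a mean of at least 10 CPM in control. The distance was Euclidean over the pair of values, which rest on 6 libraries. Ccdc37 was nearest, at a distance of 0.32, with 632 and 508 fragments in control, 12 and 16 on D4 and 180 and 87 on D7. Kcna2, a voltage-gated potassium channel, followed at 0.33, with log2 fold changes of -5.50 on D4 and -2.55 on D7. Bcas1, a gene of myelinating oligodendrocytes, was at 0.61, Pnpla3, a lipid hydrolase, at 0.63, and Rasgef1a, an exchange factor of Ras proteins, at 0.66. The rats of a group differed widely for Pnpla3, with 27 and 1341 fragments on D7. Likeness of this kind is chosen from the same values and has no test.

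Transcripts annotated as long noncoding RNAs (lncRNAs) at the loci of the 8 genes were read from the lncRNA table. Overlapping a gene or within 10 kb of it were 16 transcripts, of which 13 passed the low-count filter, and Mal had none. On D4, 12 of the 13 were lower, with 4.87% of all 14077 lncRNAs called lower, and on D7, 6 were lower, with 2.79%. Between D4 and D7, 1 was higher, with 0.142% of all lncRNAs. These counts leaned on single libraries: the 12 became 4 without D4 a and 2 without D4 b, the 6 became 0 without control a, D4 a, D4 b or D7 b, and the 1 was not called without D4 a or D4 b. The median log2 fold changes were -4.02, -1.99 and 1.79, beside 0.02, 0.04 and -0.01 over all lncRNAs tested. The sources used here do not say if fragments were assigned by strand, so that fragments of a lncRNA that overlaps a gene cannot be told apart from those of the gene.

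Within Pmp22 lay NONRATT004386.2 (Rnor_6.0 chromosome 10, 49542232 to 49561843), with 339 and 199 fragments in control, 47 and 32 on D4 and 73 and 68 on D7. Its log2 fold change was -2.90 ± 0.36 on D4 (adjusted p = 0.00969 in edgeR's quasi-likelihood test) and -2.01 ± 0.34 on D7 (adjusted p = 0.033). NONRATT004387.2 (49542637 to 49561828), in the same span, had 111 and 68 fragments in control, 6 and 6 on D4 and 26 and 14 on D7, with log2 fold changes of -4.02 and -2.24, both called. Within Mbp, NONRATT013625.2 (chromosome 18, 79434341 to 79435400) was the most counted of 5 transcripts, with 4683 and 2797 fragments in control, 370 and 465 on D4 and 1727 and 1030 on D7. In all 3 the control libraries lay above the D7 libraries and these above the D4 libraries. The D7 value of NONRATT013625.2, -1.53, had an adjusted p = 0.051 and was not called.

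At Mag, MSTRG.1274.2 (chromosome 1, 89359244 to 89366729) reached past an end of the gene and had 686 and 502 fragments in control, 0 and 0 on D4, and 97 and 38 on D7. It was at least 220-fold lower on D4 against the floor of 3 fragments a library, and its D7 value of -3.23 had an adjusted p = 0.0387 in edgeR's quasi-likelihood test. Downstream of Cldn19 in coordinate, within 10 kb of it and not overlapping it, NONRATT022570.2 (chromosome 5, 138307118 to 138308052) had 5363 and 3243 fragments in control, 38 and 54 on D4 and 2597 and 1512 on D7. It was the lncRNA called higher on D7 than on D4, by 5.55 ± 0.39 on the log2 scale, with an adjusted p = 0.0157, and its own D7 value of -1.16 against control was not called. The mRNA of Cldn19 had values of 4.54 and -1.28 in the same contrasts.

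Near Prx, NONRATT000517.2 (chromosome 1, 84334508 to 84335102) had 60 and 46 fragments in control, 20 and 14 on D4 and 26 and 27 on D7, and its log2 fold change of -1.78 ± 0.34 on D4 was smaller than that of Prx. Inside Pmp2, NONRATT015155.2 (chromosome 2, 93827564 to 93830820) had 4772 and 6180 fragments in control, 66 and 41 on D4 and 2175 and 201 on D7. Rats of the D7 group were far apart there, and the D7 value of -2.33 had an adjusted p = 0.227 in edgeR's quasi-likelihood test, which was not called. Near Cnp, NONRATT006022.2 (chromosome 10, 88498892 to 88499745) had between 28 and 43 fragments in each of the 6 libraries, and its log2 fold change of -0.18 on D4 was not called.

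**Figure D5:**
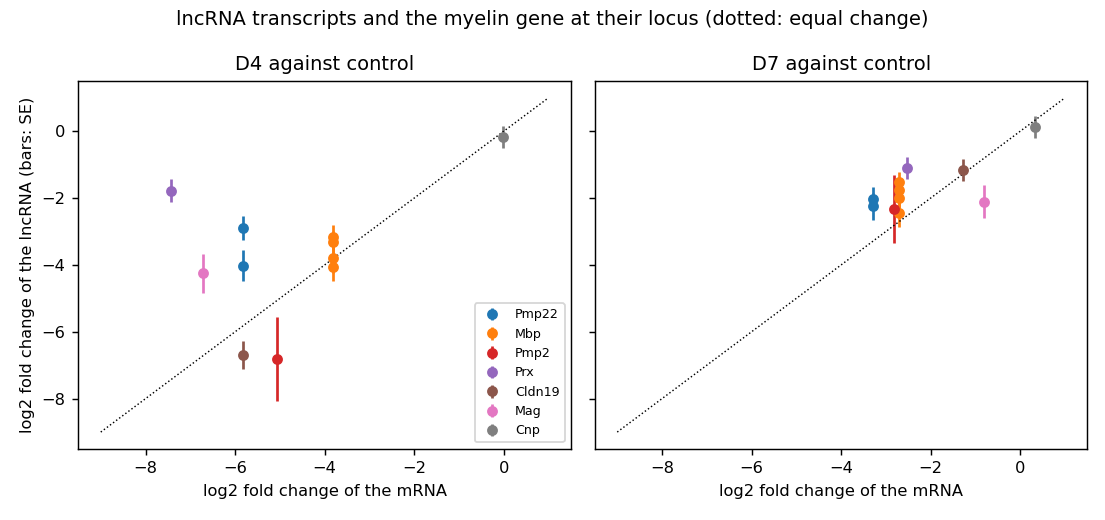
Fitted log2 fold changes of lncRNA transcripts at the loci of the genes beside those of the mRNA of the same locus, on D4 and on D7 against control, with standard errors. MSTRG.1274.2 and NONRATT000516.2, with 3 fragments or fewer in a group, are left out, and the values on D4 ran from -6.83 for the transcript in Pmp2 to -0.18 for the one near Cnp.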

How the data were processed

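RNA of 6 sciatic nerves was measured as mRNAs per gene and lncRNAs per transcript. The deposited counts are whole fragment numbers that the authors made by mapping reads free of ribosomal RNA to Rnor_6.0 with HISAT2 2.0.4 and by assembling and counting with StringTie 1.3.0. The authors also deposited FPKM, and the values of the 8 genes followed count, length and library total with a spread of at most 0.0011% and so with no TMM factor. Use of the strand in counting is not given in the sources used here.

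Counts were tested with edgeR 4.0.16 in R 4.3.3: filterByExpr, TMM factors and the quasi-likelihood test in 1 fit of all 6 libraries, separately for 30957 mRNAs and 22721 lncRNAs, with Benjamini-Hochberg adjustment over the 15195 and 14077 tested. A call needed an adjusted p-value under 0.05 and a log2 fold change of at least 1 in size. CPM used TMM-scaled library totals, and intervals are 95%. Standard errors are the absolute log2 fold change over the square root of F. Depth was 18727255 to 25350886 mRNA fragments a library, and counting error is largest for the lowest counts. Each group has 2 rats, so p-values rest on a spread shared between groups. The procedure was tested on simulated data.

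The 8 genes and the gene lists were chosen with earlier results of these data known. Named were all 8 genes, of each list the highest and lowest fitted change among those called on D4, a few genes whatever their values (Egr2, Sox10, Jun, Ngfr, S100b, Drp2, Mobp, Mog), the 5 mRNAs nearest in change, and for each gene the most counted lncRNA at its locus, with NONRATT004386.2 and NONRATT004387.2. Some genes of the rule are not reported here. Opalin, Olig2, Ermn, Hapln2, Aspa and the lncRNA NONRATT000516.2 were added once their values had been seen. Library letters were taken from GEO's titles. Deviations of same-letter libraries correlated at 0.02 (control and D4), 0.22 (control and D7) and -0.17 (D4 and D7), so the letter was a block only as an alternative. Other alternatives were fits of the groups compared only, DESeq2 1.42.0, edgeR's exact test, other scalings, filters and thresholds, and leaving out each library. Figures were drawn with Python 3.11.15, pandas 2.3.3 and matplotlib 3.10.9.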

Additional observations from a re-analysis of the deposited data

Results flagged for a closer look

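Results are listed here because the change from control on D4 and that on D7 differed in the direct test of D7 against D4, made with edgeR's quasi-likelihood model and adjusted over all features tested. Groups of 2 rats were too small for any library to be tested as standing apart from the rest of its group. Among the 8 genes, the difference in log2 fold change was 5.92 for Mag, 4.89 for Prx and 4.54 for Cldn19. It was 3.14 for Mal, 2.53 for Pmp22 and 2.26 for Pmp2.

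Of the other myelin genes, it was 5.01 for Ncmap and 2.44 for Drp2. Among the lipid enzymes it was 3.38 for Fa2h and 1.72 for Gal3st1, and for Cldn11, of the oligodendrocyte list, it was 2.29. Gpr37l1, of the Schwann lineage list, gave 2.23, Id2 gave 1.88, and Gdnf, the named gene that fell, gave -2.29. Of the genes nearest in pattern, Ccdc37 gave 3.54, Bcas1 3.07 and Kcna2 2.95. The lncRNA NONRATT022570.2, beside Cldn19, gave 5.55. None of the calls among the 8 genes, the lists and the lncRNAs at their loci was made when D4 a or D4 b was left out.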

How the results depend on the processing

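The falls of 7 of the 8 genes on D4 were called under 20 of 20 settings. With the library letter as a replicate block, 7, 6 and 6 of the 8 genes were called on D4, on D7 and between D7 and D4, and with the D4 letters exchanged, a setting chosen after seeing the data, again 7, 6 and 6. The letter only names a library, and the block moved 1 count by over 1.5 times, that of lncRNAs between D7 and D4, from 1 to 0. The rises between D4 and D7 were the least stable: 2 of 8 genes were called at an adjusted p under 0.01, and from 0 (without D4 a or D4 b) to 6 when each library was left out. Among the list genes, 17 such calls became 3 when a 2-fold change was itself tested, 0 at an adjusted p under 0.01, and 0 to 22 with a library left out. Over all mRNAs, 331 calls became 37, 8 and, by the exact test, 637, and 0 without D4 a, 0 without D4 b and 99 without D7 a. Mbp was called with the fit of D4 and D7 alone (adjusted p = 0.0482), by DESeq2 (0.00347) and by the exact test (0.0167). For Mag on D7 against control, the adjusted p-value was 0.0225 by DESeq2 and 0.039 by the exact test. In the quasi-likelihood test it was 0.0411 with the block and 0.00553 with exchanged letters. Mag was not called in any of these because its fall stayed under 2-fold. The adjusted p-value of Mag was 0.121 with 2 groups alone and 0.18 without TMM factors. Cldn19 was not called on D7 without TMM factors (-0.99), when a 2-fold change was tested, or at an adjusted p under 0.01. For lncRNAs at the loci, the 12 calls on D4 became 7 with at least 10 counts in every library and 2 to 11 with a library left out. The 6 on D7 became 2 with the groups compared alone, 10 by DESeq2, 0 with no low-count filter, 0 with a 2-fold change tested, 0 at an adjusted p under 0.01, and 0 to 2 with a library left out. The 1 between D7 and D4 became 6 by DESeq2, 6 by the exact test, 2 with at least 10 counts, 0 at an adjusted p under 0.01, and 0 to 3 with a library left out. Cnp on D4, at -0.02 and never called, was 0.031 with 2 groups alone, 0.006 with the block, 0.001 with exchanged letters, 0.27 without TMM factors, 0.042 with upper-quartile factors, 0.013 with at least 10 counts, and -0.25 to 0.24 with a library left out. As a share of summed FPKM the genes took 0.212% on D4, beside 0.231% of counts. Without TMM factors the median of all mRNAs moved to 0.25 on D4 and 0.31 on D7, and the share of called mRNAs that were higher from 51.2% to 69.3% and from 52.1% to 70.4%. The cause of these changes was not tested.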
